A study of Mus musculus with 5 samples.

Results

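The glycolysis and hypoxia response genes are 35 named genes of the mouse transcriptome, taken by symbol from a table of 32793 gene rows: 16 glycolytic enzymes from hexokinase to pyruvate kinase, 3 genes of the lactate and pyruvate branch, 2 regulatory kinases of the PFKFB family, 4 subunits or oxygen sensors of the hypoxia-inducible factor (HIF) system, and 10 genes known as hypoxia targets. All 35 were in the table, and 33 of them had enough counts to enter the tests, which covered 13501 genes. RNA came from colon spheroids, round clusters of epithelial cells grown in culture. The 2 NDD libraries carried Notch1DD and Notch2DD, dimerization-deficient alleles of the Notch1 and Notch2 receptors, and the 3 WT libraries carried neither. The strain background was mixed in both groups, C57Bl6 for the most part, the rest FVB. Age, sex, culture medium and oxygen level are not given in the sources used here. Whether the replicates came from separate mice or cultures is not given either, so p-values measure only the spread between these libraries.

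Glycolysis converts glucose to pyruvate in the cytosol, and lactate dehydrogenase turns pyruvate into lactate. Under low oxygen the prolyl hydroxylases of the Egln family no longer mark the HIF alpha subunits for destruction, and the stabilised subunits raise transcription of most glycolytic enzymes and of genes for angiogenesis, mitophagy, pH control and collagen modification. Surface cells of the colon normally lie next to a nearly oxygen-free lumen, so this response is a regular feature of the tissue. HIF binds DNA at the hypoxia response element, whose core often contains the letters ACGTG, the only form searched here.

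The first 250 bases before each annotated start were searched for ACGTG on both strands, so that CACGT on the printed strand counts and the palindrome CACGTG counts on both strands. RefSeq windows (build GRCm38.p6) were found for 32 members. The letters were present in at least 1 window of 19 of these 32 genes (59.4%), against 4998 of 27025 genes with a window (18.5%). Counted by window they were in 22 of 46 member windows (47.8%) and in 5444 of 32851 windows overall (16.6%). A match is a description of these letters and not a measured binding site. Stretches with the letters in capitals are given, as examples, for 8 of the members whose window lies outside the annotated gene. Others, such as Hk2 and Pgam1, also had the letters in such a window.
Pgk1 (chrX:106186922-106186982, plus strand): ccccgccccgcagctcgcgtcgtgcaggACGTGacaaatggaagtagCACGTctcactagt
Bnip3 (chr7:138909582-138909642, minus strand): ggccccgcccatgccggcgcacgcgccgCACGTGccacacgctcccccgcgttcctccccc
Ero1l (chr14:45318603-45318663, minus strand): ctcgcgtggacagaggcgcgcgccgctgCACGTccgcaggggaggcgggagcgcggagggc
Egln1 (chr8:124949290-124949350, minus strand): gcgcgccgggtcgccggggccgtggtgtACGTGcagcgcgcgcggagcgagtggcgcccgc
Egln3 (chr12:54204071-54204124, minus strand): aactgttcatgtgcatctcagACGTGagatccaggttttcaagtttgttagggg
Car9 (chr4:43506980-43507025, plus strand): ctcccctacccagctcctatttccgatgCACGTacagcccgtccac
P4ha2 (chr11:54100818-54100878, plus strand): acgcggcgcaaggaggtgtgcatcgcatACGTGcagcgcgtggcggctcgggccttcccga
Ddit4 (chr10:59951925-59951985, minus strand): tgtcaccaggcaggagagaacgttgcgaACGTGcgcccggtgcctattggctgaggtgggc
Gapdh, Gpi1, Eno1, Tpi1, Pfkl and Pdk1 were among the 13 genes with no ACGTG in the windows searched.

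Library totals ranged from 19192389 to 23064000 counts, and a count of 0 allows up to 0.130 to 0.156 CPM, the count scaled to a common library size, counting error only. All 10 colon epithelial markers were detected in every library, with summed levels of 10822 to 11431 CPM in NDD and 10203 to 11453 CPM in WT. The summed level of 10 fibroblast markers was 9.92 and 27.1 CPM in NDD and 4.80 to 9.32 CPM in WT, with Lum and Thy1 at 0. That of 6 endothelial markers was 1.84 and 7.54 CPM in NDD and 2.23 to 2.81 CPM in WT, with Kdr and Emcn at 0. That of 10 immune markers was 55.3 and 74.3 CPM in NDD and 70.8 to 169 CPM in WT, with Cd4 and Cd8a among those at 0 and Cd14 the most abundant. The fibroblast sum was mostly Pdgfrb (25.9 CPM in NDD replicate 2, 8.22 CPM in NDD replicate 1, 3.43 to 6.32 CPM in WT), and the endothelial sum mostly Vwf (7.35 CPM in NDD replicate 2). The other fibroblast markers, Vim and Col3a1 among them, were each below 1 CPM in NDD replicate 2. That library also had the lowest summed level of 10 proliferation markers (837 CPM, against 1889 CPM in NDD replicate 1 and 1846 to 2138 CPM in WT). The summed level of 10 surface colonocyte markers was 7303 and 7365 CPM in NDD and 2534 to 4606 CPM in WT. That sum was mostly Lypd8 and Car1. Between the NDD libraries, Car1 was lower in replicate 2 (1898 CPM, against 2887 CPM in replicate 1) and Guca2a was level (153 CPM in both). The other surface markers were higher in NDD replicate 2, among them Aqp8 (178 against 61.6 CPM), Slc26a3 (259 against 157 CPM) and Krt20 (130.5 against 60.0 CPM). The part of these differences in the results was not tested.

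In most of the genes the NDD libraries lay at opposite ends of the range, one below and one above all WT libraries. NDD replicate 1 had the lowest level of the 5 libraries in 27 of the 33 tested members (15.1% of all tested genes), and NDD replicate 2 had the highest in 29 (33.9% of all tested genes). Both held for 24 members, 72.7% of those tested, against 5.80% of all tested genes. NDD replicate 2 was at least 2 times NDD replicate 1 in 23 members (9.04% of all tested genes). Within WT, replicate 2 was the highest library in 28 members (31.4% of all tested genes), and the highest WT library was at least 2 times the lowest in 13 (14.2% of all tested genes). In bulk RNA, fewer cells of a type and less RNA per cell cannot be told apart.

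**Figure D1:**
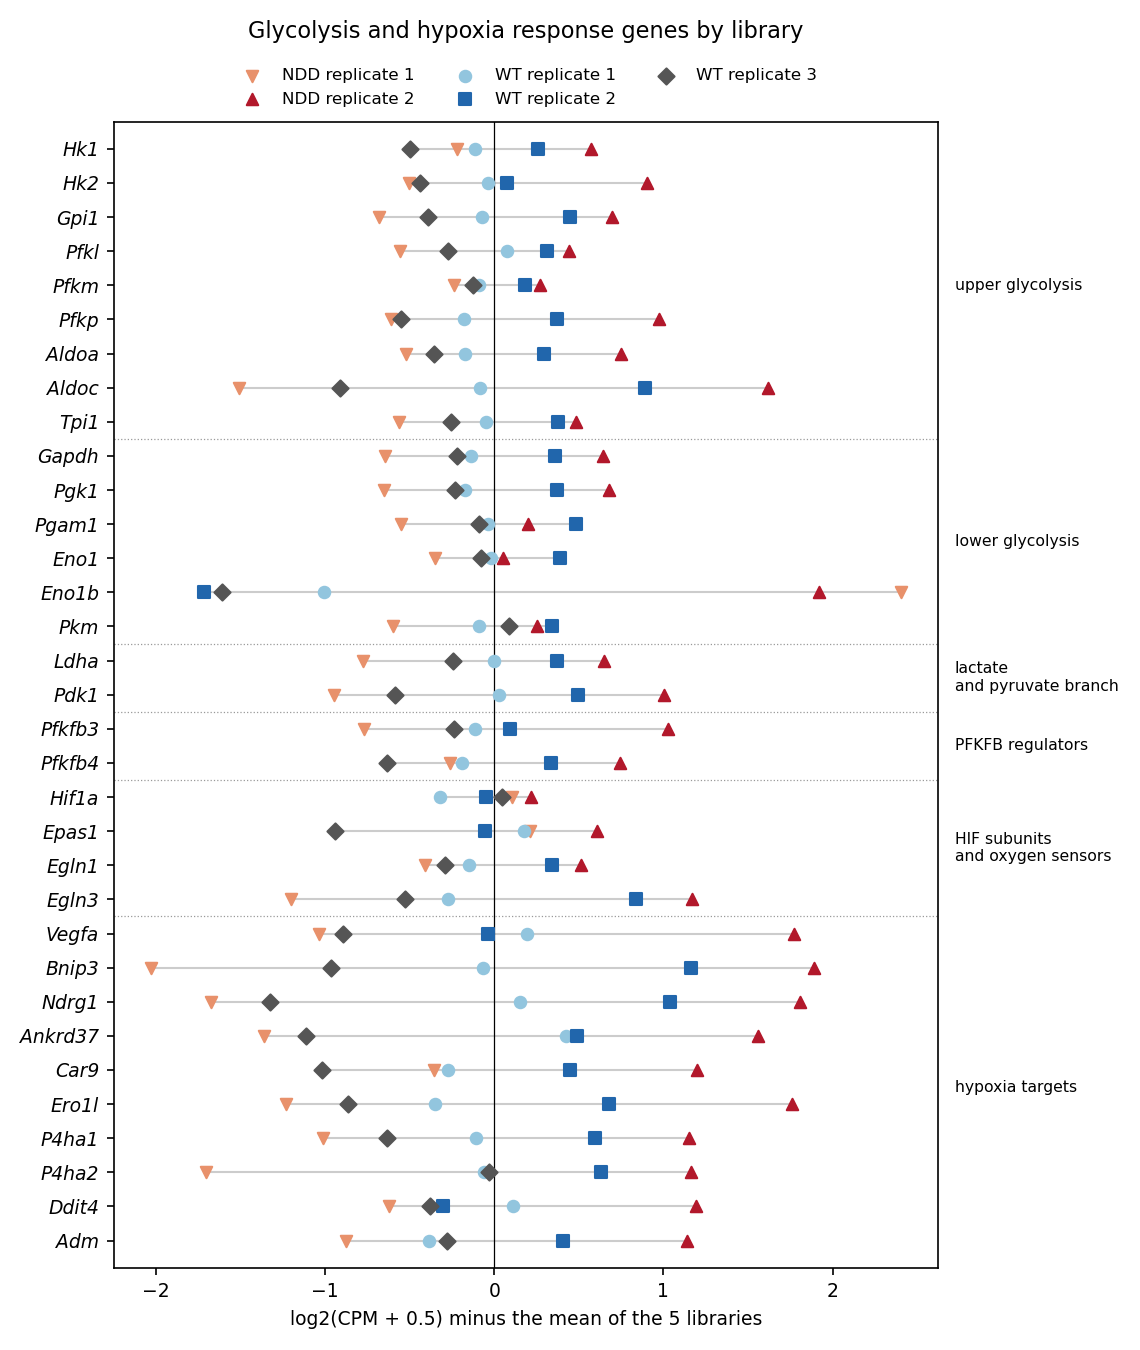
Each row is 1 of the 33 tested genes, and each symbol is 1 library placed by its log2(CPM + 0.5) minus the mean of the 5 libraries. NDD replicate 1 lies at the left end and NDD replicate 2 at the right end in 24 rows, and Eno1b is the row in which both NDD libraries lie far to the right of WT.

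The spread was widest in the hypoxia targets. The median fold of NDD replicate 2 over NDD replicate 1, computed on log2(CPM + 0.5), was 7.16 for the 10 hypoxia targets, 3.22 for the 2 tested genes of the lactate and pyruvate branch, 2.64 for the 2 PFKFB genes, 2.42 for the 9 upper glycolytic genes, 1.74 for the 6 tested lower glycolytic genes and 1.58 for the 4 HIF subunits and sensors, against no difference in the median over all tested genes. WT replicate 2 over WT replicate 3 gave 2.55 for the hypoxia targets, 1.80 for the lactate and pyruvate branch and 1.57 for the PFKFB genes. It gave 1.57 for upper glycolysis, 1.43 for lower glycolysis and 1.69 for the HIF subunits and sensors. WT replicate 2 over WT replicate 1 gave 1.64, 1.34, 1.29, 1.35, 1.38 and 1.30, in the same order of groups. The 16 glycolytic enzymes made up 1.05% and 2.11% of all transcripts for NDD, against 1.39%, 1.89% and 1.34% for WT, on the TPM scale (a share of all transcripts, scaled for gene length). The NDD mean of 1.58% ± 0.751 (SD, n = 2) and the WT mean of 1.54% ± 0.307 (SD, n = 3) differed by less than either spread.

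**Figure D2:**
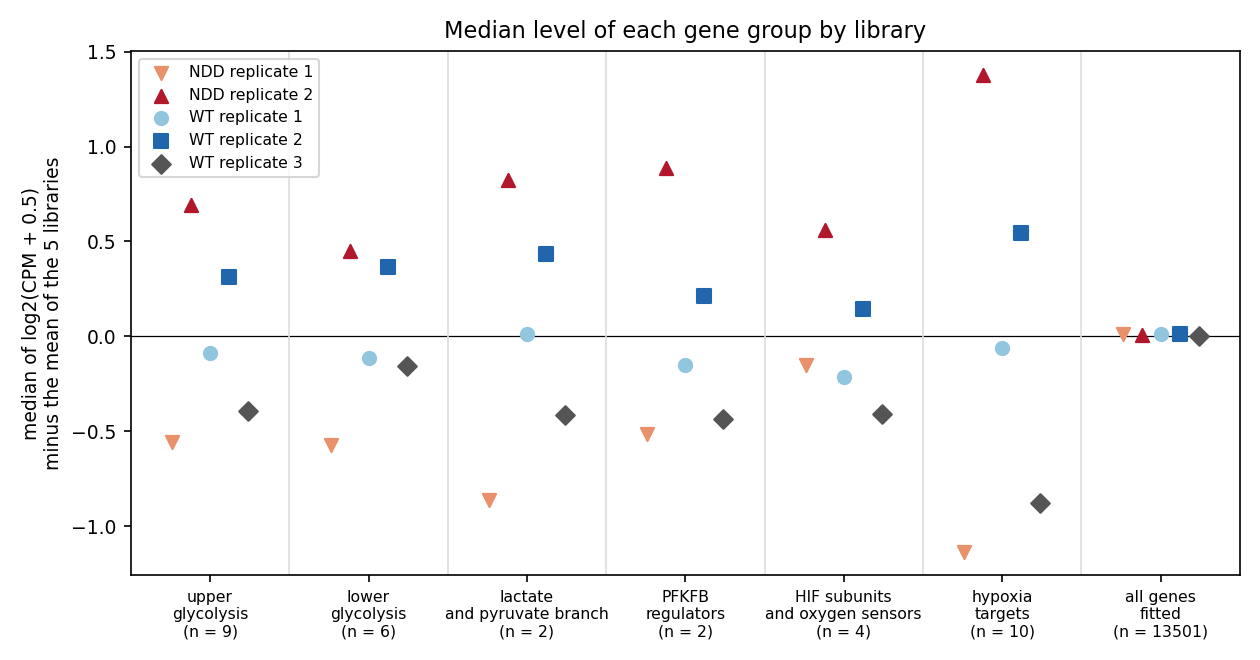
Symbols give, for each gene group and library, the median over its tested genes of log2(CPM + 0.5) minus the mean of the 5 libraries. Hypoxia targets run from -1.13 in NDD replicate 1 to 1.38 in NDD replicate 2, while all 13501 tested genes stay near 0 in every library.

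Between genotypes, 1 of the 33 tested members passed the test, Eno1b, which was higher in NDD. Over all tested genes, edgeR's quasi-likelihood test called 12 (0.0889%), of which 9 were higher in NDD (0.0667%). The same single member was called by DESeq2 (2.54% of the 14345 genes it gave an adjusted p) and by limma on log2(TPM + 1) (0.130% of 12352 genes). It was also the only member with an unadjusted edgeR p under 0.05 (11.2% of all tested genes). The median log2 fold change of the members was 0.31, against -0.0047 over all tested genes, and 29 of 33 lay above 0 (49.5% of all tested genes). This direction rested on NDD replicate 2: without it 3 of 33 members lay above 0 and the median was -0.65, and without NDD replicate 1 it was 0.96. In that last fit, which takes the lone NDD library to vary as WT does, edgeR called 5 of 34 members, against 8.62% of all 14007 genes fitted. Ldhb is among both the 34 and the 5. It passed the low-count filter there through NDD replicate 2, where it is high, so its call is no support. Over the 33 members tested with all libraries, the median in that fit was 0.95. Without a WT library the median was 0.30, 0.60 and 0.17, for replicates 1, 2 and 3. On log2(TPM + 1), tested with limma, 20 of 33 lay above 0 and the median was 0.091. The groups did not overlap in 3 members, Eno1b, Hif1a and Epas1, all higher in NDD, which is 9.09% of those tested, against 32.0% of all tested genes (15.8% for those higher in NDD).

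**Figure D3:**
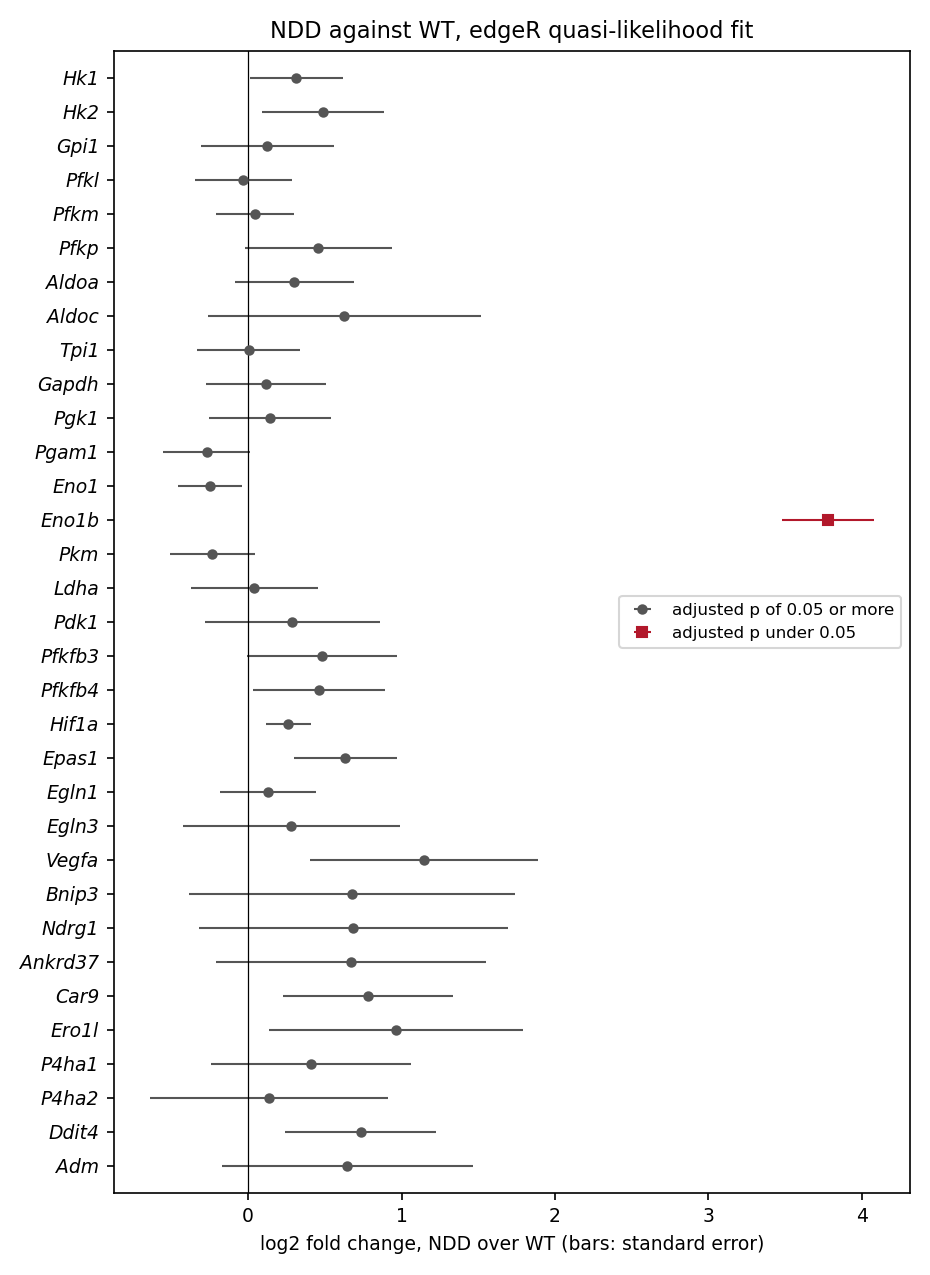
Points are log2 fold changes of NDD over WT for the 33 tested genes and bars are standard errors from the edgeR fit. Eno1b stands at 3.78 with an adjusted p under 0.05, and the other 32 genes lie between -0.27 and 1.15.

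Upper glycolysis begins with hexokinase, which traps glucose in the cell by phosphorylating it. Of the 9 upper glycolytic genes, 0 passed the test (edgeR, none at an unadjusted p under 0.05, and 0 by DESeq2). Hk1, the widely expressed form, was at 247 and 427 CPM in NDD replicates 1 and 2 and 265, 344 and 204 CPM in WT replicates 1 to 3. Hk2, the form known to respond to hypoxia, was at 85.5 and 228 CPM in NDD replicates 1 and 2 and 118, 128 and 89.2 CPM in WT replicates 1 to 3. Its highest library was NDD replicate 2 and its lowest NDD replicate 1, so the groups overlapped, and its log2 fold change came to 0.49 (standard error 0.40, adjusted p 0.581 by edgeR). Without NDD replicate 1 the log2 fold change of Hk2 was 1.02, and without NDD replicate 2 it was -0.37, each from a lone NDD library. In TPM, Hk2 made up 20.5% and 28.4% of Hk1 plus Hk2 in NDD and 24.9%, 21.6% and 24.6% in WT.

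Gpi1, the isomerase that turns glucose phosphate into fructose phosphate, was at 656 and 1703 CPM in NDD and 1003, 1438 and 801 CPM in WT. Phosphofructokinase is the main control point of the pathway. Pfkl, the liver-type subunit, was at 186 and 372 CPM in NDD and 289, 339.9 and 226 CPM in WT. Pfkp, the platelet-type subunit, was at 161 and 484 CPM in NDD and 218, 319 and 168 CPM in WT, and the muscle-type Pfkm stayed at or below 9.93 CPM in every library. Pfkp ran 3.00 times higher in NDD replicate 2 than in NDD replicate 1 and Pfkl 2.00 times. Pfkp held 46.0% and 56.9% of phosphofructokinase transcripts in NDD and 43.4%, 49.2% and 44.0% in WT on the TPM scale, and the groups overlapped (exact two-sided permutation test, p = 0.4, adjusted over 7 isozyme shares 0.933, where 0.2 is the smallest p that 2 libraries against 3 allow).

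Aldolase splits the doubly phosphorylated sugar. Aldoa was at 1116 and 2697 CPM in NDD and 1424, 1965 and 1250.5 CPM in WT. Hk1, Gpi1, Pfkp and Aldoa had log2 fold changes of 0.31, 0.13, 0.46 and 0.30, and their groups overlapped. Aldoc, its less abundant isozyme, was at 11.8 and 107 CPM in NDD replicates 1 and 2 and 32.5, 64.5 and 18.1 CPM in WT replicates 1 to 3. The NDD libraries of Aldoc differed 9.05-fold and the WT libraries up to 3.56-fold, the widest range among the glycolytic genes other than Eno1b, and its log2 fold change of 0.63 (standard error 0.89, adjusted p 0.742 by edgeR) was smaller than its standard error. Aldoc held 0.558% and 2.06% of aldolase transcripts in NDD and 1.19%, 1.71% and 0.764% in WT. Tpi1, which interconverts the aldolase products, was at 403 and 832 CPM in NDD and 575, 775 and 499.5 CPM in WT, and its log2 fold change came to 0.0032 (standard error 0.34, adjusted p 0.997 by edgeR).

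Lower glycolysis yields ATP and pyruvate. Gapdh was the most abundant member in every library, at 4530.4 and 10201 TPM in NDD and 6242, 8686 and 5979 TPM in WT. On the CPM scale Gapdh was at 3206 and 7840.3 CPM in NDD and 4558, 6430.5 and 4302 CPM in WT, with NDD libraries on both sides of WT and a log2 fold change of 0.12 (standard error 0.39, adjusted p 0.895 by edgeR). Gapdh is a common reference gene, and here its level varied 2.45-fold over the 5 libraries. Pgk1, an ATP-producing kinase with a pair of ACGTG cores in the stretch shown above, was at 481 and 1206 CPM in NDD and 670.4, 978 and 642 CPM in WT, a range of 2.51-fold. Pgam1, the mutase, was at 330.5 and 556 CPM in NDD and 472, 677 and 456 CPM in WT. Pkm, the main pyruvate kinase gene of most tissues, was at 1594 and 2877 CPM in NDD and 2265, 3051 and 2566 CPM in WT. In Pgam1, Pkm and Eno1 the highest library was WT replicate 2 and not NDD replicate 2, and their log2 fold changes of -0.27, -0.23 and -0.25 were 3 of the 4 below 0, beside Pfkl at -0.030. None of the 4 was called, with edgeR adjusted p-values from 0.587 to 0.970.

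Enolase makes phosphoenolpyruvate. Its main gene here, Eno1 (chr4:150236708-150248879, GRCm38.p6), was at 1115 and 1474 CPM in NDD and 1404, 1861 and 1348 CPM in WT, and its log2 fold change came to -0.25 (standard error 0.21, adjusted p 0.587 by edgeR) and to -0.068, -0.45 and -0.076 without NDD replicate 1, NDD replicate 2 and WT replicate 2. Eno1b, an annotated copy on chromosome 18, was at 53.1 and 37.9 CPM in NDD replicates 1 and 2 and 4.56, 2.59 and 2.83 CPM in WT replicates 1 to 3. Both NDD libraries lay above all WT libraries, and NDD replicate 1 was the higher of the pair. The group values were 45.5 ± 10.8 CPM for the NDD pair (SD, n = 2) against 3.33 ± 1.07 CPM for WT (SD, n = 3), and the log2 fold change came to 3.78 (standard error 0.30, adjusted p 0.0234 by edgeR). The call was lost when any 1 WT library was left out (edgeR adjusted p 0.0752, 0.153 and 0.147 without WT replicates 1, 2 and 3), although the log2 fold change then stayed between 3.64 and 4.07. Without NDD replicate 1 and without NDD replicate 2 the log2 fold changes were 3.51 and 4.02. Each of these fits takes the lone NDD library to vary as WT does.

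The split between Eno1 and Eno1b is uncertain, because the transcripts are nearly identical. The longest annotated Eno1b transcript aligned to Eno1 over 1652 of its 1791 bases with 9 mismatches (99.5% identity of the aligned part). Of the 31-base stretches of Eno1b, 81.8% also occur in Eno1 (GENCODE M21). A further near copy, Gm4735, shares 94.9% of its 31-base stretches with Eno1b and has no values here, so reads from it cannot be told apart either. How reads that match both were assigned is set by the authors' estimation. Eno1b held 4.55% of Eno1 plus Eno1b counts in NDD replicate 1 (95% Wilson interval 4.30 to 4.80, counting error only) and 2.51% in NDD replicate 2 (2.34 to 2.68). In WT it held 0.323% (0.263 to 0.398), 0.139% (0.108 to 0.179) and 0.210% (0.165 to 0.266). The difference of 3.30 percentage points had p = 0.2 in the exact two-sided permutation test, the smallest that this design allows. Summed, Eno1 plus Eno1b was at 1168 and 1512 CPM in NDD replicates 1 and 2 and 1409, 1863 and 1351 CPM in WT replicates 1 to 3, and the groups overlapped. The sum had a log2 fold change of -0.20 (standard error 0.20, adjusted p 0.647 by edgeR) in the fit with both rows merged, and the exact two-sided permutation test of the summed log2 CPM gave p = 0.6. With Eno1b at 4.55% of the sum or less, the sum is set by Eno1, and a difference of the size seen in Eno1b lay below its spread. Eno3, the muscle enolase, is not in the sum and was at 48.9 and 89.8 CPM in NDD and 61.5, 96.2 and 64.3 CPM in WT. Eno2, the neuronal enolase, had 0 counts in 4 libraries and 1 count in WT replicate 3, too few to test.

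**Figure D4:**
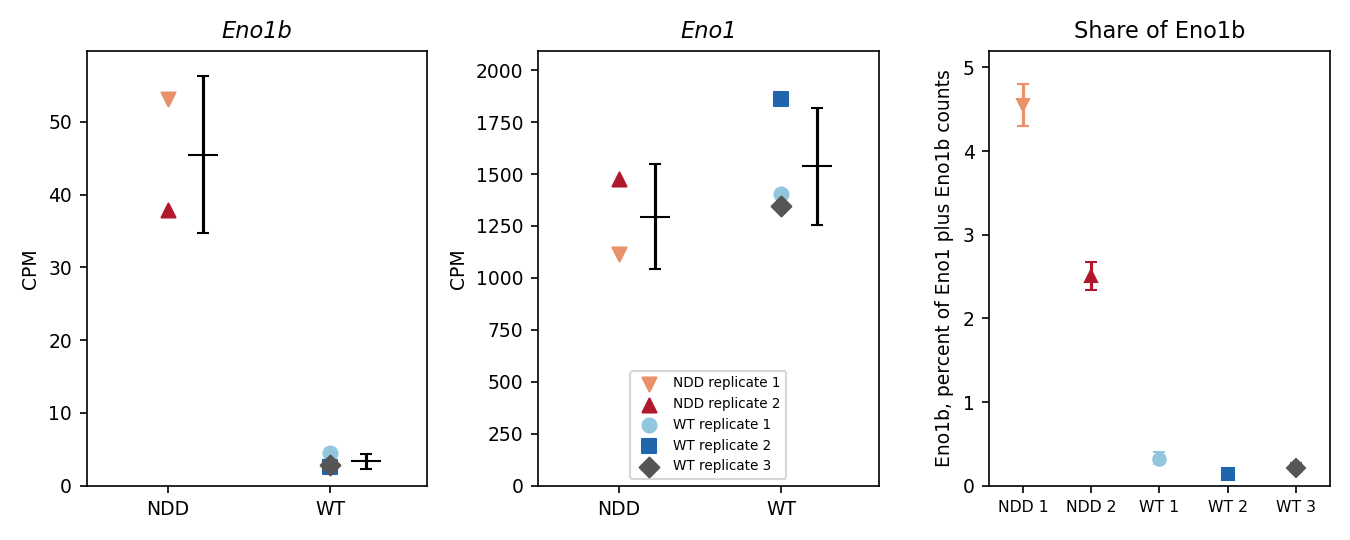
The left and middle panels show Eno1b and Eno1 in CPM for each library, with the group mean and SD beside the points, and the right panel shows the Eno1b share of Eno1 plus Eno1b counts with 95% Wilson intervals. Eno1b is at 37.9 and 53.1 CPM in NDD and at most 4.56 CPM in WT, while Eno1 overlaps between groups.

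At the lactate branch, Ldha, which reduces pyruvate to lactate, was at 716 and 1915 CPM in NDD and 1222, 1583 and 1034 CPM in WT. Its NDD values lay on both sides of WT, and its log2 fold change stood at 0.04 (standard error 0.41, adjusted p 0.970 by edgeR). Ldhb, the isozyme associated with lactate oxidation, had 6 and 80 counts in NDD and 2, 5 and 8 counts in WT, and was not tested because 1 library alone reached the minimum. Its share of Ldha plus Ldhb transcripts stayed at or below 0.251% in every library. Pdk1, a kinase that inhibits pyruvate dehydrogenase and so the oxidation of pyruvate, was at 55.8 and 217 CPM in NDD replicates 1 and 2 and 110.5, 153 and 71.9 CPM in WT replicates 1 to 3. Pdk1 differed 3.90-fold between the NDD libraries and 2.13-fold within WT, and its log2 fold change came to 0.29 (standard error 0.57, adjusted p 0.818 by edgeR).

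The PFKFB kinases set the level of a fructose bisphosphate that activates phosphofructokinase. Pfkfb3 was at 12.6 and 45.1 CPM in NDD and 20.1, 23.3 and 18.4 CPM in WT, with NDD replicate 2 apart from the other 4 libraries. The log2 fold change was 0.48 (standard error 0.49, adjusted p 0.649 by edgeR). It moved to 1.12 when NDD replicate 1 was left out and to -0.70 when NDD replicate 2 was. Pfkfb4 was at 5.60 and 11.7 CPM in NDD and 5.90, 8.70 and 4.20 CPM in WT, and its log2 fold change came to 0.46 (standard error 0.43, adjusted p 0.624 by edgeR).

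Of the HIF alpha subunits, Hif1a was at 138 and 149 CPM in NDD replicates 1 and 2 and 102, 124 and 132 CPM in WT replicates 1 to 3. Hif1a had the narrowest range of the tested members, 1.45-fold over the 5 libraries. Both NDD libraries lay above all WT libraries, and its log2 fold change came to 0.26 (standard error 0.15, adjusted p 0.484 by edgeR) and to 0.16 without WT replicate 1. Epas1, which encodes the second HIF alpha subunit, was at 47.0 and 61.9 CPM in NDD replicates 1 and 2 and 45.7, 38.8 and 20.8 CPM in WT replicates 1 to 3. Its groups did not overlap either, and its log2 fold change of 0.63 (standard error 0.33, adjusted p 0.481 by edgeR) was 0.36 without WT replicate 3. Neither passed the test. HIF activity is controlled mainly through protein stability, which these data do not measure. Egln1, the main oxygen sensor, was at 77.1 and 146 CPM in NDD and 92.5, 130.0 and 83.8 CPM in WT. Egln3, a hydroxylase that is itself a HIF target, was at 81.4 and 422 CPM in NDD replicates 1 and 2 and 155, 336 and 130.3 CPM in WT replicates 1 to 3. Egln3 differed 5.19-fold between the NDD libraries, and its log2 fold change came to 0.28 (standard error 0.71, adjusted p 0.858 by edgeR), smaller than its standard error.

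Among hypoxia targets, NDD replicate 2 was the highest library in 10 of 10 genes, and NDD replicate 1 the lowest in 9. The log2 fold changes lay between 0.14 and 1.15 with a median of 0.68. On log2(TPM + 1), tested with limma, they ran from -0.38 for P4ha2 to 0.64 for Car9, and Bnip3 was also below 0. None of the 10 was called, and none had an unadjusted edgeR p under 0.05. Without NDD replicate 2 all 10 log2 fold changes were below 0, from -2.37 for Bnip3 to -0.18 for Car9. Bnip3, which marks mitochondria for removal, had the widest range of the hypoxia targets, at 12.0 and 188 CPM in NDD replicates 1 and 2 and 48.1, 114 and 25.6 CPM in WT replicates 1 to 3. The NDD libraries differed 15.7-fold and the WT libraries up to 4.43-fold, and the log2 fold change stood at 0.68 (standard error 1.06, adjusted p 0.767 by edgeR). Ndrg1, a stress-responsive gene of differentiated epithelium, was at 58.5 and 659.7 CPM in NDD replicates 1 and 2 and 209, 386 and 74.8 CPM in WT replicates 1 to 3. Here the NDD libraries differed 11.3-fold and the WT libraries up to 5.16-fold, and the log2 fold change stood at 0.69 (standard error 1.01, adjusted p 0.751 by edgeR).

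Ero1l, which passes electrons from disulphide formation in the endoplasmic reticulum to oxygen, was at 101 and 804 CPM in NDD replicates 1 and 2 and 186, 379.8 and 130.3 CPM in WT replicates 1 to 3. Its order of libraries was that of Bnip3 and Ndrg1, and its log2 fold change stood at 0.96 (standard error 0.83, adjusted p 0.599 by edgeR). Vegfa, the main angiogenic growth factor, was at 52.0 and 368 CPM in NDD replicates 1 and 2 and 123, 105 and 57.5 CPM in WT replicates 1 to 3. Vegfa had the largest log2 fold change of the members after Eno1b, 1.15 (standard error 0.74, adjusted p 0.516 by edgeR), which moved to -0.85 when NDD replicate 2 was left out and to 1.95 when NDD replicate 1 was. Car9, a surface carbonic anhydrase that exports acid, was at 119.5 and 352 CPM in NDD replicates 1 and 2 and 126, 209 and 75.4 CPM in WT replicates 1 to 3. Unlike the other hypoxia targets its lowest library was WT replicate 3, and its log2 fold change stood at 0.78 (standard error 0.55, adjusted p 0.541 by edgeR).

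The collagen prolyl hydroxylase subunits also had NDD replicate 1 lowest and NDD replicate 2 highest. P4ha1 was at 8.66 and 40.5 CPM in NDD and 16.7, 27.4 and 11.4 CPM in WT. P4ha2 was at 2.88 and 24.3 CPM in NDD and 10.1, 16.6 and 10.3 CPM in WT, where NDD replicate 1 stood below the other 4 libraries. Ankrd37, a small ankyrin-repeat gene, was at 3.06 and 26.5 CPM in NDD and 11.8, 12.3 and 3.73 CPM in WT. Ddit4, an inhibitor of mTORC1 signalling that also answers to other stresses, was at 33.6 and 119.6 CPM in NDD and 56.2, 42.1 and 39.9 CPM in WT. Its WT libraries spread 1.41-fold, and its log2 fold change was 0.73 (standard error 0.49, adjusted p 0.523 by edgeR). That fold change moved to 1.37 when NDD replicate 1 was left out and to -0.44 when NDD replicate 2 was. Adm, a secreted vasodilator peptide, had the lowest counts of the tested members, at 0.481 and 3.46 CPM in NDD and 0.880, 1.89 and 0.987 CPM in WT.

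A further list of 85 genes of glycolysis, gluconeogenesis, pyruvate entry, the pentose phosphate pathway, glucose and lactate transport and the hypoxia response placed the members in their pathways. Of these, 71 were tested, and edgeR called 0 of them, with 8 at an unadjusted p under 0.05, against 11.2% of all tested genes. DESeq2 called 2, Pgd and Pck1, against 2.54% of all genes with an adjusted p there, and limma on log2(TPM + 1) called 0. Their median log2 fold change was 0.074. The 24 tested further hypoxia targets showed the library pattern in part: NDD replicate 2 was the highest library in 16 and NDD replicate 1 the lowest in 15, and both held for 9 of 24 (against 5.80% of all tested genes). Slc16a3, the lactate exporter induced by HIF, was at 9.05 and 149 CPM in NDD replicates 1 and 2 and 62.5, 121 and 27.3 CPM in WT replicates 1 to 3, a 16.5-fold difference between the NDD libraries. Stc2, a secreted glycoprotein and known hypoxia target, was at 12.8 and 105 CPM in NDD and 35.3, 67.7 and 24.0 CPM in WT. Both of these genes, like Eno3 above and Slc2a1 at the end, were picked with their values known.

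The 6 further genes with the smallest unadjusted p are given as a description, since that choice favours genes whose groups do not overlap. Pgd, a dehydrogenase of the pentose phosphate pathway, was at 436 and 314 CPM in NDD replicates 1 and 2 and 593, 624 and 707 CPM in WT replicates 1 to 3, with both NDD libraries below all WT libraries and a log2 fold change of -0.77 (standard error 0.18, adjusted p 0.293 by edgeR). Pck1, which diverts oxaloacetate to gluconeogenesis, was at 9.71 and 32.2 CPM in NDD and 5.90, 6.02 and 2.62 CPM in WT, and its log2 fold change came to 2.11 (standard error 0.57, adjusted p 0.362 by edgeR). Plin2, a lipid droplet protein, was at 89.4 and 97.6 CPM in NDD and 67.0, 72.8 and 57.0 CPM in WT, and its log2 fold change came to 0.51 (standard error 0.15, adjusted p 0.383 by edgeR). Slc5a1, the sodium-coupled glucose transporter, was at 106 and 125 CPM in NDD and 92.2, 85.7 and 74.7 CPM in WT. Slc16a1, a monocarboxylate transporter, was at 286 and 347 CPM in NDD and 209.6, 267 and 231 CPM in WT. Wsb1, a ubiquitin ligase subunit, was at 79.3 and 102 CPM in NDD and 70.7, 64.0 and 58.4 CPM in WT. None of the 6 passed adjustment over all genes in edgeR. Without NDD replicate 1, the log2 fold changes of Pgd, Pck1 and Wsb1 were -1.04, 2.73 and 0.66. Without NDD replicate 2 they were -0.54, 1.02 and 0.32. Each of these fits holds a lone NDD library, so only the size of the difference is given. The 9 tested partners and degradation factors of HIF had a median log2 fold change of -0.026 and a median fold of NDD replicate 2 over NDD replicate 1 of 0.959. Within that list Hif3a, a further HIF alpha subunit gene chosen here with its values known, was at 4.46 and 128 CPM in NDD and 44.8, 52.4 and 13.3 CPM in WT, with NDD replicate 1 lowest and NDD replicate 2 highest. Slc2a1, the glucose importer, was at 151 and 299 CPM in NDD and 199, 269 and 200.3 CPM in WT, and its log2 fold change came to 0.015 (standard error 0.31, adjusted p 0.984 by edgeR).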

How the data were processed

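RNA was extracted with a PureLink RNA Mini kit and made into libraries with Illumina Stranded mRNA Prep, per the labels' protocols. The authors deposited a table of estimated (expected) counts, given as whole numbers, and a table of TPM values, for all 5 libraries. Bowtie2, RSEM and mm10 are named in the submitters' processing notes, without versions. The annotation and how strand was set are not given in the sources used here. RSEM divides reads that match several genes by estimation, which bears on Eno1 and Eno1b.

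The deposited expected counts were tested with edgeR 4.0.16 (quasi-likelihood, robust, TMM factors, low-count filter, all 5 libraries, R 4.3.3), with p-values adjusted by Benjamini-Hochberg over 13501 genes. A gene was called at an adjusted p under 0.05. Log2 fold changes use a prior count of 0.125, and the standard error is the fold change divided by the root of the F statistic. The deposited TPM values gave shares and, as log2(TPM + 1) with at least 1 TPM in 2 libraries, an alternative in limma 3.58.1. DESeq2 1.42.0 and the other alternatives were tried as well. Single values were compared by exact two-sided permutation (scipy 1.17.1). Scripts were tested on simulated data. Near copies were searched as shared 31-base stretches of GENCODE M21 transcripts. Members other than the enolases had them too. Pgk1-rs7 and Pgam1-ps2 share 100% of the shorter gene's stretches with Pgk1 and Pgam1 and have no values here. Gapdh has many, nearly all without values, so reads from such copies cannot be told apart.

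All 35 members and the Eno1 plus Eno1b sum are described. Of 85 further pathway genes, those called and the 6 with the smallest unadjusted p are named by rule. Eno3, Slc16a3, Stc2, Hif3a and Slc2a1 were added with their values known. Members and lists were chosen with earlier results of these data known. Groups of 2 and 3 are too small for an outlier test.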

Additional observations from a re-analysis of the deposited data

How the results depend on the processing

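The single member called, Eno1b, was also called with DESeq2 size factors (RLE) in edgeR, DESeq2, no filter on low counts, a minimum of 10 counts in every library, limma on TPM with either pseudocount, and the replicate block. Leaving out 1 library gave 0 to 5 members called. The count was 0 without any 1 WT library (edgeR, 1 at an unadjusted p under 0.05 each time). It was 5 without NDD replicate 1, where the lone NDD library is assumed to vary like WT, with Hk2, Pfkfb3, Ddit4 and Ldhb called beside Eno1b, against 8.62% of all genes in that fit. Ldhb passed the low-count filter there through NDD replicate 2, where it is high, so its call is no support. The further pathway genes went from 0 to 2 with DESeq2 and to between 0 and 5 with 1 library left out. Over all tested genes 12 calls became 365 with DESeq2, 58 without the filter, 4 with the minimum of 10 counts, 25 with limma on log2(TPM + 0.1), 33 with the replicate block, and 0 to 1207 with 1 library left out (0 without WT replicate 1, with 1211 at an unadjusted edgeR p under 0.05). The cause was not tested.

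The members' median log2 fold change of 0.31 was -0.088 with the replicate block and -0.65 to 0.96 with 1 library left out, and 29 of 33 members changed sign when some library was left out. These ran from Hk1 -0.12 to 0.65, Hk2 -0.37 to 1.02, Gpi1 -0.71 to 0.65, Pfkl -0.60 to 0.38, Pfkm -0.24 to 0.28, Pfkp -0.53 to 1.04, Aldoa -0.46 to 0.80, Aldoc -1.69 to 1.47, Tpi1 -0.60 to 0.43, Gapdh -0.65 to 0.61, Pgk1 -0.65 to 0.65, Pgam1 -0.68 to 0.050, Pkm -0.71 to 0.12, Ldha -0.82 to 0.57, Pdk1 -0.99 to 0.95, Pfkfb3 -0.70 to 1.12, Pfkfb4 -0.15 to 0.89, Egln1 -0.39 to 0.51, Egln3 -1.33 to 1.02, Vegfa -0.85 to 1.95, Bnip3 -2.37 to 1.58, Ndrg1 -1.92 to 1.56, Ankrd37 -1.58 to 1.51, Car9 -0.18 to 1.35, Ero1l -1.19 to 1.79, P4ha1 -1.08 to 1.12, P4ha2 -2.08 to 0.97, Ddit4 -0.44 to 1.37, Adm -1.36 to 1.45. All of these lowest values came without NDD replicate 2 and all of the highest without NDD replicate 1. The percentage-point difference in isozyme share, NDD minus WT, then ran from -3.21 to 4.69 for Hk2, -0.532 to 0.485 for Pfkm and -0.666 to 0.835 for Aldoc. For Pfkp it ran from 0.475 to 11.3, for Pfkl from -10.8 to -0.959 and for Ldhb from 0.0224 to 0.227. That of Eno1b stayed between 2.28 and 4.32. The log2 fold change of Eno1 plus Eno1b stayed between -0.39 and -0.030. On log2(TPM + 1), log2 fold changes turned to Gpi1 -0.014, Tpi1 -0.090, Gapdh -0.015, Pgk1 -0.0022, Ldha -0.13, Pdk1 -0.037, Egln3 -0.051, Bnip3 -0.13 and P4ha2 -0.38. On log2(TPM + 0.1) they were Gpi1 -0.014, Tpi1 -0.090, Gapdh -0.015, Pgk1 -0.0023, Ldha -0.13, Pdk1 -0.041, Egln3 -0.054, Bnip3 -0.15 and P4ha2 -0.51. Tpi1 was -0.0016 in DESeq2 and -0.0048 without the filter.

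The shared replicate numbers are not stated to pair the libraries. Deviations from the group mean correlated at r = 0.353 between the libraries numbered 2 and at r = -0.009 between those numbered 1 (13501 genes). With 2 NDD libraries their deviations are mirror images, so the correlations are not separate checks and cannot decide whether numbers pair libraries. With the replicate block, 14 of 33 members lay above 0, and the sign turned for Gpi1 -0.18, Pfkm -0.032, Aldoc -0.34, Tpi1 -0.20, Gapdh -0.11, Pgk1 -0.088, Ldha -0.25, Pdk1 -0.23, Egln1 -0.044, Egln3 -0.30, Bnip3 -0.60, Ndrg1 -0.53, Ankrd37 -0.35, P4ha1 -0.17 and P4ha2 -0.56. Eno1b kept its call there (edgeR adjusted p 0.00185). No NDD library shares the number of WT replicate 3, and the block leaves few degrees of freedom. That p therefore leans on variance borrowed from other genes. With 2 libraries against 3, exact tests of single values cannot go below p = 0.2, and among the members Eno2 and Ldhb had too few counts to test.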
